A study of Rattus norvegicus with 10 samples.

Results

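The sites described here are places where SOX6 was called in RCS cells with H3K4me1 as the only active histone mark and without SOX9. RCS cells are a cell line from a rat chondrosarcoma, a cartilage tumour, and all 10 libraries of the series come from it, with no treatment or genotype named in the labels. Chromatin immunoprecipitation with sequencing gave 1 library for each of 6 antibodies, against the factors SOX6 and SOX9 and the histone marks H3K4me1, H3K27ac, H3K4me3 and H3K9me3, and 4 input libraries were made without antibody. The sites were chosen by overlap of the deposited peak lists. A SOX6 peak had to share at least 1 bp with an H3K4me1 peak and none with a SOX9, H3K27ac or H3K4me3 peak. This left 1646 of 19355 SOX6 peaks, or 8.50% (95% Wilson interval 8.12% to 8.91%). Of the SOX6 peaks, 10812 met no SOX9 peak, 6985 of these met no H3K4me3 peak either, and 3910 met no H3K27ac peak in addition. H3K4me1 was present at 42.1% of those 3910 and absent from the other 2264. Since each antibody has 1 library, no value has a replicate error, no p-value is given, and intervals cover counting error only. Neighbouring peaks are not independent, so these intervals are too narrow as a guide to what another library would give.

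SOX6 belongs to the SOXD group of transcription factors, which bind DNA through an HMG box, pair through a coiled coil and have no known transactivation domain of their own. In cartilage SOX6 and its relative SOX5 act with SOX9, the factor that directs chondrocyte differentiation, on genes of the cartilage matrix. H3K4me1 is laid down widely at enhancers, H3K27ac is found at those that are active, and an enhancer with H3K4me1 but no H3K27ac is often called primed. H3K4me3 is typical of promoters, and H3K9me3 of heterochromatin. Marks such as H3K27me3, which separate poised from primed enhancers, were not analysed here. An H3K4me1-alone site in these data is one with no deposited H3K27ac peak, which may still carry acetylation below the lowest score of that list. No sequence is shown and no site is assigned to a gene, because a genome and annotation of rn5, the build of the peak coordinates, were not used here.

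Most of the H3K4me1-alone sites were low-scoring SOX6 peaks, and a few were strong. The authors' peak score, for which the sources used here give no scale, had a median of 75.3 (quartiles 59.3 and 112) at these sites, against 104 over all SOX6 peaks. Other SOX6 peaks without SOX9 also scored low, with medians of 85.5 at acetylated peaks without H3K4me3 and 58.7 at peaks with no active mark. SOX6 peaks with SOX9 and H3K4me1 alone had a median of 113. The lowest was 50 and the highest 1491. Scores below 100 made up 68.9% of the sites, 474 sites (28.8%) were above the median of the SOX6 list, and 19 were in its top decile. The peaks were narrow, with a median of 382 bp (quartiles 291 and 514, range 115 to 2236), and higher-scoring sites tended to be wider, with a rank correlation of 0.42 across the 1646 sites. Both values come from the same library and the sites are not independent.

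The share of SOX6 peaks that were H3K4me1-alone sites changed little over the lower part of the score range and fell in the upper part. It was 11.6% (10.3% to 13.1%) in the lowest decile of score, 13.0% (11.5% to 14.5%) in the third and 10.3% (9.01% to 11.7%) in the sixth. It was 4.24% in the eighth decile and 0.981% (0.629% to 1.53%) in the highest. These values describe the class, because the rule used the SOX6 peaks. A different picture appeared when only SOX6-only peaks without H3K4me3 were counted. H3K4me1 alone was then present at 17.6% of peaks in the lowest decile, at 29.7% in the sixth and at 15.6% in the ninth. Peaks with no active mark made up 57.0% of the lowest and 13.9% of the ninth decile, while acetylated peaks made up 25.4% and 70.5%. H3K4me1-alone sites were therefore most frequent at middle scores, between unmarked peaks at low and acetylated peaks at high scores. The top decile departed from this order, with 21.6% H3K4me1-alone, 52.3% acetylated and 26.1% unmarked, over only 88 peaks.

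**Figure D1:**
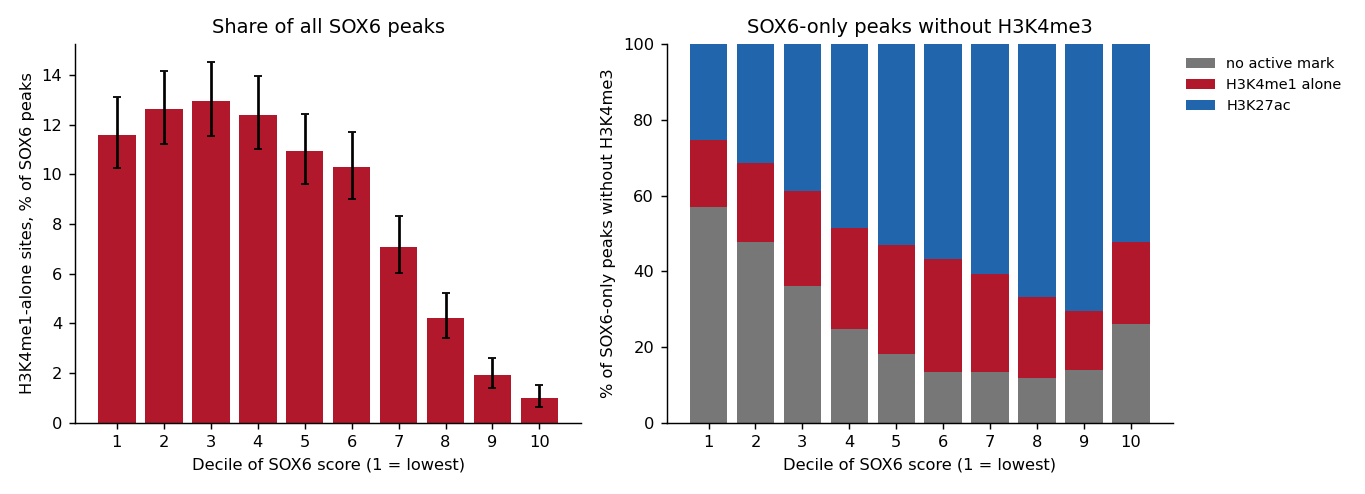
Left, the share of SOX6 peaks in each decile of SOX6 score that are SOX6-only sites with H3K4me1 alone, with 95% Wilson intervals. Right, the make-up of SOX6-only peaks without H3K4me3 in the same deciles, as a stack of peaks with no active mark, with H3K4me1 alone and with H3K27ac. On the left the lowest decile stands at 11.6% and the highest at 0.981%, and on the right the H3K4me1-alone band is widest in the sixth decile, at 29.7%.

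The 10 highest-scoring sites were named by rule. The highest, with a SOX6 score of 1491, lay on chromosome 10 from 84413351 to 84414400 (rn5) and ranked 301 in the SOX6 list. It sat wholly inside an H3K4me1 peak of 1889 bp, and was 16.9 kb from the nearest H3K27ac peak and 110 kb from the nearest SOX9 peak. Few SOX6 peaks scored higher, and no SOX9 peak was called near it. The second, with a score of 1447, lay on chromosome 6 from 83310541 to 83311111, 44.6 kb from H3K27ac and 45.6 kb from SOX9. The third, with a score of 1158, lay on chromosome 4 from 37932350 to 37933212, and its gaps to H3K27ac, H3K4me3, SOX9 and H3K9me3 were all between 138 kb and 145 kb. Its H3K4me1 peak of 637 bp was narrower than the SOX6 peak of 863 bp and scored at the 21.2 percentile of the H3K4me1 list, so strong SOX6 here came with a weak methylation peak.

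The fourth, on chromosome 14 from 37703701 to 37704214 with a SOX6 score of 1043, also had an H3K4me1 peak of low rank, at the 18.7 percentile, and the nearest SOX9 peak was 233 kb away. The fifth, on chromosome 20 from 25471792 to 25472345 with a score of 1001, was the most isolated of the 10, at 317 kb from H3K27ac and 437 kb from SOX9. The sixth stood in the opposite setting. It lay on chromosome 6 from 85809583 to 85810155, scored 982, and had H3K27ac at 1.38 kb, H3K4me3 at 1.42 kb and SOX9 at 3.36 kb. The seventh and eighth, on chromosome 10 from 48721630 to 48722495 (score 816) and from 47603903 to 47604572 (score 813), had SOX9 peaks at 10.8 kb and 15.6 kb. The H3K4me1 peak of the eighth, 2811 bp wide and at the 94.3 percentile, was the highest-ranked of the 10. The ninth lay on chromosome 11 from 35342115 to 35342602 (score 740) and the tenth on chromosome 14 from 88854255 to 88855057 (score 712). Over the 10 sites the gap to H3K27ac ran from 1.38 kb to 317 kb with a median of 16.3 kb, and that to SOX9 from 3.36 kb to 437 kb with a median of 59.3 kb. None of the 10 overlapped H3K9me3, and the nearest H3K9me3 peak was 9.87 kb away.

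The H3K4me1 peaks under the sites were of middling rank. The 1646 sites lay on 1624 H3K4me1 peaks, of which 25 held 2 sites and 1 held 3. The H3K4me1 score had a median of 198 (quartiles 108 and 392) over the sites, which is the 58.0 percentile of that list, and 60.3% of the H3K4me1 peaks were above the list's median. At the 2924 SOX6-only acetylated sites without H3K4me3 that lay on H3K4me1, this peak had a median score of 741 and a median width of 1974.5 bp, against 1101 bp at the H3K4me1-alone sites. SOX6 peaks that overlapped SOX9 and carried H3K4me1 alone (408 peaks) had a median H3K4me1 score of 272 and a width of 1232 bp. SOX9-only peaks with H3K4me1 alone (587 peaks) had 176 and 1039 bp. Among the H3K4me1-alone sites the SOX6 score and the H3K4me1 score were hardly related, with a rank correlation of 0.07 across 1646 sites from 1 library each.

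SOX6 sat near the middle of these H3K4me1 peaks. The centre of the SOX6 peak lay inside the H3K4me1 peak at 1582 sites (96.1%), at a median of 370 bp from the nearer edge, and 1367 SOX6 peaks (83.0%) were wholly covered. With each H3K4me1 peak cut into 3 equal parts, the central one held 912 SOX6 centres, or 55.4% (53.0% to 57.8%). This share was 51.1% (49.2% to 52.9%) at SOX6-only acetylated sites without H3K4me3, 59.1% (54.2% to 63.7%) at SOX6 peaks with SOX9 and H3K4me1 alone, and 43.6% over all SOX6 peaks with H3K4me1. More than 1 H3K4me1 peak was met by 5 sites, by 11 of the 2924 acetylated sites, by 4 of the 408 SOX6 peaks with SOX9 and H3K4me1 alone, and by 728 of all 14390 SOX6 peaks on H3K4me1. Low counts were thus shared by these classes. The widths of both kinds of peak differ between these classes, and the part of width in this comparison was not tested.

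**Figure D2:**
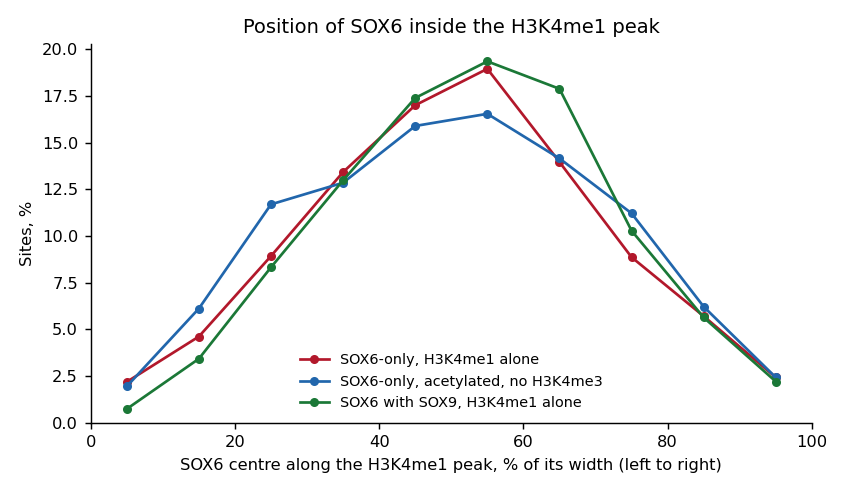
Position of the SOX6 peak centre along the H3K4me1 peak that it overlaps most, in 10 equal parts of the H3K4me1 width from left to right on the chromosome. Points give the percent of sites in each of them for SOX6-only sites with H3K4me1 alone, SOX6-only acetylated sites without H3K4me3, and SOX6 peaks with SOX9 and H3K4me1 alone; centres outside the H3K4me1 peak are in the total and not drawn. All 3 curves are highest near the middle.

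Most of the H3K4me1 peaks carried no other active mark or SOX9 along their whole length. This held for 1438 of the 1624 (88.5%). The rule keeps H3K27ac, H3K4me3 and SOX9 off the SOX6 peak itself, so this share is in part set by the selection. No share over all H3K4me1 peaks was set beside it. H3K27ac was present elsewhere along 162 of them (9.98%), H3K4me3 along 62 (3.82%) and SOX9 along 38 (2.34%). In the 162, SOX6 lay on a part of the H3K4me1 peak that had no called acetylation.

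The sites lay at very different distances from acetylated chromatin. The gap to the nearest H3K27ac peak, measured between interval edges, had a median of 11898 bp (quartiles 3385.5 bp and 35525.5 bp). Of the sites, 212 (12.9%) had an H3K27ac peak within 1 kb, 32.1% had one within 5 kb, and 845 (51.3%, 48.9% to 53.7%) had one within 12500 bp, a distance often used to join peaks into large enhancer regions. At the other end 145 sites (8.81%) were more than 100000 bp from any H3K27ac peak. SOX6-only peaks with no active mark were farther away, with 31.4% (29.5% to 33.3%) within 12500 bp and a median gap of 27876 bp. SOX9-only peaks with H3K4me1 alone had 48.9% (44.9% to 52.9%) within this distance, and SOX6 peaks with SOX9 and H3K4me1 alone had 43.1% (38.4% to 48.0%). The rule excludes overlap with H3K27ac for all these classes, so the gaps are a description. Some sites lay between H3K27ac peaks within 12500 bp of each other, that is inside a stitched acetylated region but off its peaks. There were 135 such sites (8.20%, 6.97% to 9.63%), against 4.90% (4.09% to 5.87%) of the SOX6-only peaks with no active mark. The share was 9.71% (7.57% to 12.4%) at SOX9-only peaks with H3K4me1 alone. SOX6 peaks with SOX9 and H3K4me1 alone had 6.86% (4.79% to 9.74%). The sites differed from these by -1.51 points (-4.44 to 1.06) and 1.34 points (-1.79 to 3.85). The intervals of both shares overlapped that of the sites, so this position was not particular to them.

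**Figure D3:**
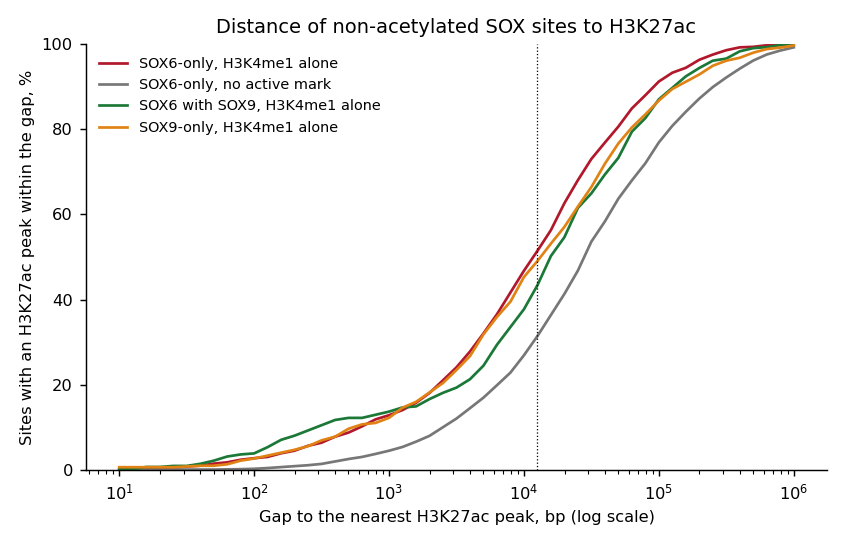
Cumulative percent of sites with an H3K27ac peak within a given gap, in bp on a log scale, for SOX6-only sites with H3K4me1 alone and 3 other classes without acetylation. The dotted line is at 12500 bp, where the curve of SOX6-only sites with H3K4me1 alone stands at 51.3% and that of SOX6-only peaks with no active mark at 31.4%.

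The difference from unmarked peaks was also seen among peaks of similar SOX6 score. In the lowest quintile of SOX6 score, 57.4% (52.8% to 61.8%) of the H3K4me1-alone sites and 30.6% (28.1% to 33.1%) of unmarked SOX6-only peaks had H3K27ac within 12500 bp. In the fourth quintile this held for 47.0% (40.5% to 53.6%) of the former and 35.9% (27.8% to 44.9%) of the latter. The intervals of these shares stood apart in the lowest 3 quintiles and overlapped in the highest 2. Within the H3K4me1-alone sites themselves the share was 57.4%, 50.8%, 49.5%, 47.0% and 35.7% (24.5% to 48.8%) from the lowest to the highest quintile, the last over 56 sites. The relation was weak, with a rank correlation of 0.10 between SOX6 score and gap to H3K27ac across the 1646 sites.

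The 5 sites farthest from acetylation were not strong SOX6 peaks. The farthest lay on chromosome 7 from 5312047 to 5312367 with a SOX6 score of 63.5, and its nearest H3K27ac peak was 1942 kb away, although H3K4me3 was at 5.72 kb and H3K9me3 at 0.444 kb. The next were chr20:27248271-27248515 at 1494 kb, chr2:154653576-154653849 at 1481 kb, chr2:264001951-264002419 at 951 kb and chr16:42014465-42015017 at 751 kb. The scores of the 5 were between 63.5 and 136. They do not stand for remote sites in general. The 145 sites more than 100000 bp from H3K27ac had a median SOX6 score of 83.2, against 75.3 over all 1646 sites.

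Sites on either side of the rule differed by a few base pairs. The member nearest to acetylation, on chromosome 5 from 22996774 to 22997057, ended 5 bp from an H3K27ac peak. The next were 7 bp (chromosome 3 from 26041966 to 26042308) and 12 bp away (chromosome 8 from 65393844 to 65394197). Just outside, SOX6-only peaks on H3K4me1 shared 9 bp with an H3K27ac peak on chromosome 17 from 9680416 to 9680645 and on chromosome 18 from 40244615 to 40245087, and 12 bp on chromosome 19 from 72092646 to 72093076. At the H3K4me1 side, the smallest overlaps were 5 bp on chromosome 8 from 74927816 to 74928022 and 6 bp on chromosome 3 from 101605684 to 101605856 and on chromosome 9 from 61008851 to 61009259. Of the sites, 64 had less than 50% of their length under H3K4me1 and 76 (4.62%) lay within 200 bp of H3K27ac. A margin of 1 kb around the excluded lists left 1397 of the 1646 sites. Reading the overlap at the SOX6 centre only gave 1759 sites, of which 1582 were among the 1646.

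SOX9 was seldom close. The gap to the nearest SOX9 peak had a median of 41065 bp (quartiles 13821 bp and 109418 bp). A SOX9 peak lay within 1 kb of 44 sites (2.67%) and within 12500 bp of 378 (23.0%, 21.0% to 25.1%). Of the SOX6-only acetylated sites without H3K4me3, 16.1% had SOX9 within 1 kb and 48.4% within 12500 bp. Of the unmarked SOX6-only peaks 1.06% and 14.9% did. Of the SOX9-only peaks with H3K4me1 alone, 4.77% had a SOX6 peak within 1 kb and 28.8% within 12500 bp. The sites differed from these by -2.10 points (-4.24 to -0.393) and -5.83 points (-10.1 to -1.73). Nearby SOX9 went with nearby acetylation. Among the 316 sites with H3K27ac between 1 kb and 5 kb away, 44.6% had SOX9 within 12500 bp, and among the 482 with H3K27ac between 12500 bp and 50000 bp away, 4.77% did. The rule excludes overlap with either list, so both gaps are a description. H3K4me3 was within 12500 bp of 502 sites (30.5%), against 42.4% of the acetylated and 21.5% of the unmarked class. It was this close to 23.5% of SOX6 peaks with SOX9 and H3K4me1 alone, a difference of 6.97 points (2.10 to 11.4). SOX9-only peaks with H3K4me1 alone had 28.8%, a difference of 1.71 points (-2.66 to 5.89) with an interval that includes 0.

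H3K4me1 peaks without any other active mark or SOX9 offer a view from the side of the mark. There were 41781 such peaks that held either a SOX6-only site with H3K4me1 alone or no SOX6 peak, and 1438 of them (3.44%, 3.27% to 3.62%) held a site. The share went with the H3K4me1 score. It was 1.34% (1.03% to 1.74%) for the lowest decile, 5.87% (5.19% to 6.62%) for the ninth and 10.1% (9.22% to 11.1%) for the highest. In the lowest 4 deciles it stayed between 1.33% and 1.61%. Higher-scoring peaks are also wider, with a median width of 1720 bp among SOX6-free peaks of the highest decile and 587 bp in the lowest. The part of width in this trend was not tested.

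The distance of these H3K4me1 peaks to acetylation is given as a description. H3K4me1 peaks overlapping H3K27ac are left out on both sides of the comparison. The rule removed SOX6 peaks that overlap H3K27ac, and 78.1% of all SOX6 peaks lay on or within 1 kb of H3K27ac. The part of this selection in the distances was not tested. H3K27ac was within 12500 bp of 46.1% (43.5% to 48.7%) of the 1438 peaks with a site and of 63.8% (63.4% to 64.3%) of the 40343 without SOX6. The median gap was 14854 bp with a site and 6937 bp without. The share was lower with a site in each of the 10 deciles of H3K4me1 score, with differences between -33.7 and -13.1 percentage points. SOX9, whose list the rule also used, was within 12500 bp of 20.3% of peaks with a site and 28.6% without. Among peaks more than 1 kb from H3K27ac, the shares with H3K27ac within 12500 bp were 42.3% and 57.3%. When any SOX6 peak counted and SOX9 was not considered, they were 44.7% and 63.6%. Both of these settings were chosen after the data had been seen, and both keep the exclusion of H3K27ac. H3K9me3, which the rule did not use, overlapped 3.48% (2.65% to 4.55%) of peaks with a site and 3.78% (3.59% to 3.97%) without, and the interval of the difference (-1.15 to 0.795 points) includes 0.

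**Figure D4:**
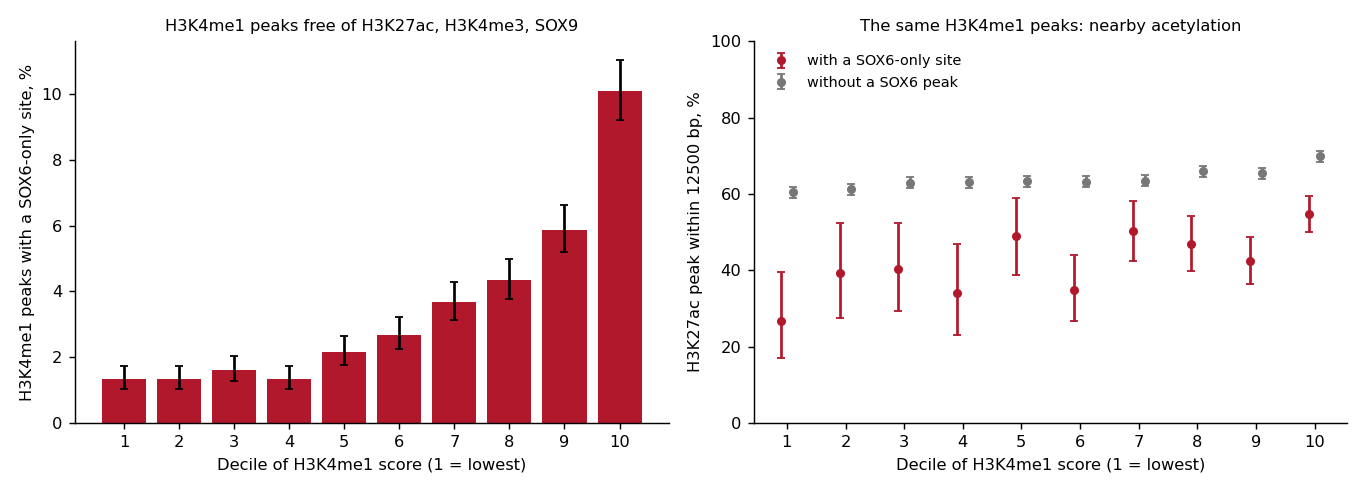
H3K4me1 peaks without H3K27ac, H3K4me3 or SOX9, by decile of H3K4me1 score, with 95% Wilson intervals. Left, the percent that hold a SOX6-only site with H3K4me1 alone, which goes from 1.34% to 10.1%. Right, the percent with an H3K27ac peak within 12500 bp, for peaks with such a site and for peaks without SOX6. The peaks with a site stand lower in all 10 deciles. The rule removed SOX6 peaks that overlap H3K27ac, and the part of this selection was not tested.

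H3K9me3 was the mark that the rule did not use. It overlapped 37 of the 1646 sites, or 2.25% (1.64% to 3.08%), and 3.01% of all SOX6 peaks. Against the SOX6 peaks that are not H3K4me1-alone sites (3.08%), the difference was -0.830 points (-1.50 to 0.0404), an interval that includes 0. Against SOX6-only acetylated sites without H3K4me3, where H3K9me3 met 145 of 3075 peaks (4.72%), the difference was -2.47 points (-3.48 to -1.38). Against SOX6-only peaks with no active mark, where it met 149 of 2264 (6.58%), the difference was -4.33 points (-5.59 to -3.07). The share at SOX6 peaks with SOX9 and H3K4me1 alone was 2.21% (9 peaks) and that at SOX9-only peaks with H3K4me1 alone 3.41% (20 peaks), and both intervals of the difference include 0. In quintiles of SOX6 score the sites carried H3K9me3 less often than the acetylated and the unmarked SOX6-only peaks in all 5, but the counts were small (2 to 15 sites) and the Wilson intervals overlapped those of the acetylated class in 4 of the 5.

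Nearby H3K9me3 was less frequent than at the other SOX6 peaks. A peak of this mark lay on or within 5 kb of 277 sites (16.8%, 15.1% to 18.7%) and of 24.3% of all SOX6 peaks. Against the SOX6 peaks that are not such sites, the difference was -8.14 points (-9.98 to -6.15). The mark was this close to 26.9% of SOX6-only acetylated sites without H3K4me3, 21.2% of unmarked SOX6-only peaks and 102 of the 408 SOX6 peaks with SOX9 and H3K4me1 alone. The differences from these were -10.03 points (-12.4 to -7.60), -4.37 points (-6.82 to -1.88) and -8.17 points (-12.9 to -3.79). SOX9-only peaks with H3K4me1 alone, at 18.7%, differed by -1.91 points (-5.69 to 1.59), an interval that includes 0. The H3K9me3 peaks on the 37 sites were close to their list in score and width. They had a median score of 85.7 and a median width of 671 bp, and the whole list had 87.8 and 701 bp. At 31 of the 37 sites they covered more than 50% of the SOX6 peak. Of the 37, 24 (64.9%) had H3K27ac within 12500 bp, and so had 821 of the 1609 sites without H3K9me3.

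Chromosome 7 held 10 of the 37 sites with H3K9me3, the most of any chromosome. The share there was 7.69% (4.23% to 13.6%), and elsewhere it was 1.78% (1.23% to 2.58%). Setting the chromosome with the highest count against the rest widens such a contrast, so it is a description. SOX6-only acetylated sites without H3K4me3 were uneven in the same direction, with 12.6% on chromosome 7 and 3.98% elsewhere, while unmarked SOX6-only peaks had 6.90% and 6.55%, and over all SOX6 peaks the shares were 6.64% and 2.68%. On chromosome 7 the SOX6 input had 1.85 times the median chromosome's density of reads without a mismatch. Chromosomes 9 and 16 had more, with 1.94 and 1.97 times, and H3K9me3 met 4 of 110 and 2 of 62 sites there. The part of input density in these shares was not tested. The widest H3K9me3 overlap, 1136 bp, covered the whole SOX6 peak on chromosome 7 from 114339070 to 114340205, which had a SOX6 score of 237, an H3K4me1 peak of 3775 bp and SOX9 at 0.680 kb. The next was also on chromosome 7, from 67196660 to 67197583, with 769 bp under H3K9me3. The others were chr17:38237-38903 with 667 bp, chr9:42220172-42220934 with 644 bp and chr11:78484544-78485186 with 643 bp.

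Most of the sites had no other of their class nearby. Of the 1646, 125 (7.59%, 6.41% to 8.97%) had another site of the class within 12500 bp. This was 7.07% for unmarked SOX6-only peaks, a difference of 0.527 points with an interval that includes 0 (-1.11 to 2.22), while 23.6% of the more numerous SOX6-only acetylated sites had another of their class. It was lower in the smaller H3K4me1-alone classes, at 3.92% of 408 SOX6 peaks with SOX9 and 3.41% of 587 SOX9-only peaks. The part of class size in these shares was not tested. The median gap to the nearest other site of the class was 324287 bp. They formed 57 pairs, 2 groups of 3 and 1 group of 5. The group of 5 lay on chromosome 8 from 6173460 to 6198781, with SOX6 scores between 50.03 and 206, and its span of 25.3 kb also held 1 SOX9, 1 H3K27ac and 2 H3K4me3 peaks. The groups of 3 were chr4:23066532-23074479, with 7.95 kb in length and scores up to 225, and chr16:58885798-58903182, with 17.4 kb and scores up to 65.1. Neither held a peak of SOX9, H3K27ac, H3K4me3 or H3K9me3. The first 2 pairs by position were chr1:100185193-100189934 and chr1:104010539-104023717, and the second pair had a member 47 bp from a SOX9 peak.

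The kinds of SOX6 peak nearest to a site were close to their shares of all SOX6 peaks, except for other H3K4me1-alone sites. These were the nearest SOX6 peak for 242 sites (14.7%) and made up 8.50% of all SOX6 peaks. The nearest peak overlapped SOX9 for 675 sites (41.0%, against 44.1% of all SOX6 peaks). It was SOX6-only with H3K4me3 for 293 (17.8%, against 19.8%), SOX6-only and acetylated without H3K4me3 for 251 (15.2%, against 15.9%) and unmarked for 185 (11.2%, against 11.7%). The median gap to this neighbour was 28499 bp. It lay within 12500 bp for 519 sites, and among these it was another H3K4me1-alone site for 107 (20.6%).

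The sites were found on all 21 chromosomes with peaks. Their share of SOX6 peaks was highest on chromosome 6 (114 sites, 11.5%, 9.66% to 13.6%) and chromosome 11 (84 sites, 11.5%, 9.38% to 14.0%). It was lowest on chromosome 12 (24 sites, 4.48%, 3.03% to 6.58%), X (11 sites, 4.76%, 2.68% to 8.32%) and chromosome 10 (81 sites, 6.21%, 5.02% to 7.65%). Per length, they were densest on chromosome 7, with 9.06 per 10 Mb, and on chromosomes 9 (9.05) and 11 (8.98), and sparsest on X, with 0.712. These densities went with the SOX6 input and with the density of all SOX6 peaks. Across the 21 chromosomes the number of sites per 10 Mb had a Pearson correlation of 0.837 and a Spearman correlation of 0.839 with input reads without a mismatch per Mb, and 0.849 (Pearson) over the 20 autosomes. The share of SOX6 peaks that were sites had 0.221 and 0.197 with the input, and 0.0902 (Pearson) over the autosomes. Between sites per 10 Mb and all SOX6 peaks per 10 Mb the correlations were 0.775 (Pearson) and 0.732 (Spearman). Over the autosomes the Pearson value of this pair was 0.679. All of these densities share the length used for each chromosome, the last peak end over all lists, and the part of the input in the density of sites was not tested.

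**Figure D5:**
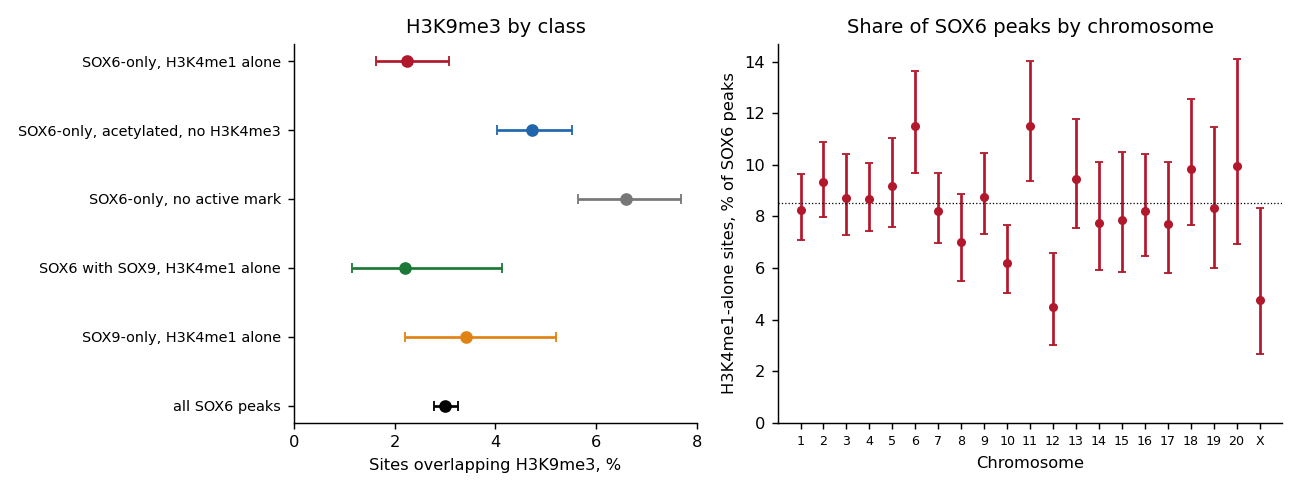
Left, the percent of sites overlapping H3K9me3 in SOX6-only sites with H3K4me1 alone, the classes compared with them and all SOX6 peaks. Right, the percent of SOX6 peaks on each chromosome that are SOX6-only sites with H3K4me1 alone, with the share over all chromosomes, 8.50%, as a dotted line. Bars are 95% Wilson intervals; H3K9me3 stands at 2.25% of the sites, and the intervals of chromosomes 6 and 11 lie wholly above the dotted line and those of 10, 12 and X wholly below it.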

How the data were processed

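The 6 immunoprecipitated libraries were deposited as peak lists, 1 per library, with peak names that carry the name of MACS, per the file headers and contents. The score of a peak, deposited by the authors, starts at 50. The sources used here do not say on what scale, so scores were used within a list only. The 4 inputs were deposited as read counts per chromosome, raw, per the file headers. The inputs held 36873004 to 131858579 reads, of which 53.4% to 53.5% aligned. Per the submitters' processing notes, CASAVA 1.8 was used and the build was rn5. For the aligner, the caller's version and settings and the control of each list, nothing is given in the sources used here, and the depth of the immunoprecipitated libraries is unknown.

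Intervals were read as counted from 0 and are printed counting from 1. Gaps were measured between interval edges, and 12500 bp was the distance for nearby peaks. Shares have Wilson 95% intervals and differences of shares Newcombe intervals, computed with scipy 1.17.1. Overlap, gap and interval code was checked on simulated intervals. The class with no active mark takes in peaks on H3K9me3, whereas the planned one did not and would have had none by construction. Named sites were the 10 highest-scoring, the 5 largest groups, the 5 farthest from H3K27ac, the 5 with widest H3K9me3 overlap, 3 on each side of the H3K27ac edge of the rule and the 3 with the smallest H3K4me1 overlap. The sites, classes and named rules were chosen with earlier results of these data known. Alternatives were the overlap, the width of the SOX6 interval, a margin, score thresholds and a distance of 5 kb.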

Additional observations from a re-analysis of the deposited data

How the results depend on the processing

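Of 39 values recomputed under the alternatives, 21 stayed within the interval of the value reported (for the number of sites, within 1.5 times) and 18 did not. The share with H3K9me3 stayed within its interval in all 6 alternatives run for it, from 1.71% to 2.53%. Requiring 50% of the SOX6 interval under H3K4me1 (1582 sites), or SOX6 intervals of 400 bp (1636 sites, 1606 of them among the 1646), moved none of the 6 results out of its interval. Reading the overlap at the SOX6 centre only gave 9.09% of SOX6 peaks, with 55.3% within reach (12500 bp) of H3K27ac. A margin of 1 kb around the excluded lists left 7.22%, with 43.8% within reach of H3K27ac and 18.7% of SOX9. SOX6 peaks above the median score left 474 sites (4.90% of those peaks), with 46.8% within reach of H3K27ac, 20.5% of SOX9 and 1.69% of another site. H3K4me1 peaks above the median score left 996 sites (5.15%), with 56.7%, 26.2% and 6.22% for the same neighbours. A reach of 5 kb gave 32.1%, 10.1% and 4.92%. The score thresholds lower the number of sites by their construction, so the class size depends on how weak a SOX6 or H3K4me1 peak is accepted. With 1 library per antibody no replicate could be left out, and the depth of the immunoprecipitated libraries, which limits what was called as acetylated or bound by SOX9, is unknown.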
